A study of Amaranthus hybridus and Amaranthus hypochondriacus with 18 samples.

Results

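Transcripts linked by name to lipids of the leaf surface were followed in *A. hypochondriacus*, 2 out of the 30946 in the count table of the species. The values are RNA counts, and no surface lipid was measured in these libraries. One is AhypoNutrisol_DN7918_c0_g1_i1, which the annotation of the study names 3-ketoacyl-CoA synthase 6 (KCS6). The other is AhypoNutrisol_DN4324_c0_g2_i1, named lipid transfer protein (LTP). Both were chosen by identifier, with earlier results of these data known, and both passed the filter on low counts that left 12429 transcripts to be tested. The names come from similarity to proteins of other plants. For the LTP the annotation says lipid transfer and lipid localization and does not mention the cuticle, so its place beside a wax enzyme rests on the family name alone.

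The series holds 18 leaf libraries of the cultivated *A. hypochondriacus* cv. Nutrisol and the wild *A. hybridus*, all listed as wild type, with 3 libraries per group. Plants entered treatment at the age of a month. Water-deficit plants received no irrigation for 14 days. Salt plants were given 100 ml of NaCl solution every day, at 0.15 M during the opening 7 days, at 0.3 M during the following 4 days and at 0.5 M in the last 3 days. Control plants stayed on the watering schedule that all plants had before treatment. Each library was made from mature, non-senescent leaves pooled from 3 plants, so a value is a mean over plants and over the cell types of a leaf, and p-values measure the spread between such pools. In bulk leaf RNA, fewer cells of a type and less RNA per cell cannot be told apart.

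The plant cuticle is a layer of cutin and waxes that the epidermis deposits on its outer wall, and it slows the loss of water from the leaf. Wax precursors are very-long-chain fatty acids, which the fatty acid elongase of the endoplasmic reticulum builds from shorter acyl-CoAs and malonyl-CoA. The 3-ketoacyl-CoA synthase carries out the condensation that starts each round of elongation and sets the chain length, and in *Arabidopsis thaliana* KCS6 (also called CER6 or CUT1) is the main condensing enzyme of shoot wax. Plant LTPs are small secreted proteins that hold a lipid in a hydrophobic cavity. Some members of the family take part in the export of cuticle lipids, and others in defence and signalling.

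The *A. hypochondriacus* libraries held 10.9 to 20.5 M (mega) counts of reads, of which only 0.320 to 1.50 M fell outside the 20 most abundant transcripts. The second water-deficit library had the fewest counts by both measures. It also stood apart from its group, with a root mean square distance of 0.79 (log2) to the other water-deficit libraries, against 0.69 and 0.64 for those. It lay 0.835 from water deficit 1, 0.743 from water deficit 3 and 0.740 to 0.772 from the salt libraries. Water deficit 3 was about as near to salt, at 0.701 to 0.776, but only 0.545 from water deficit 1. The sum of 5 photosynthesis transcripts (rubisco small chain and 4 chlorophyll a-b binding proteins), which mark green leaf tissue, was 19.4 to 26.1 CPM in water-deficit libraries, 44.2 to 65.9 CPM in salt libraries and 169 to 242 CPM in control libraries. CPM here means counts per M of library size, with the size scaled by TMM factors. None of the 5 markers was at 0. The marker sum of the second water-deficit library, 26.1 CPM, was the highest of its group, but the markers were split there. Rubisco small chain (13.7 CPM against 4.82 and 7.76 CPM) and LHCB3 were highest in that library. CP29.2, CP26 and chlorophyll a-b binding protein 4 were lowest there. No list of markers for epidermis, guard cells or trichomes could be drawn from the annotation, so the share of the cells that make cuticle was not tested.

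Both transcripts averaged higher under each stress than in the control, and each passed the test under 1 stress. KCS6 rose under salt, by a log2 fold change (log2FC) of 1.19, and the difference of 0.39 under water deficit did not pass the test. The LTP rose under water deficit by a log2FC of 5.13, and its salt value of 1.61 did not pass. Set directly against each other, the stresses differed for the LTP, with water deficit higher by a log2FC of 3.52, while the value of -0.81 for KCS6 did not pass. A transcript passed when the FDR, the p-value adjusted over all tested transcripts, was below 0.01 and the absolute log2FC was above 1. The methods of the paper state another test, the exact test of edgeR, and a stricter absolute log2FC limit of 2. At that log2FC limit KCS6 did not pass under salt. Both stresses were compared with the same 3 control libraries.

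**Figure D1:**
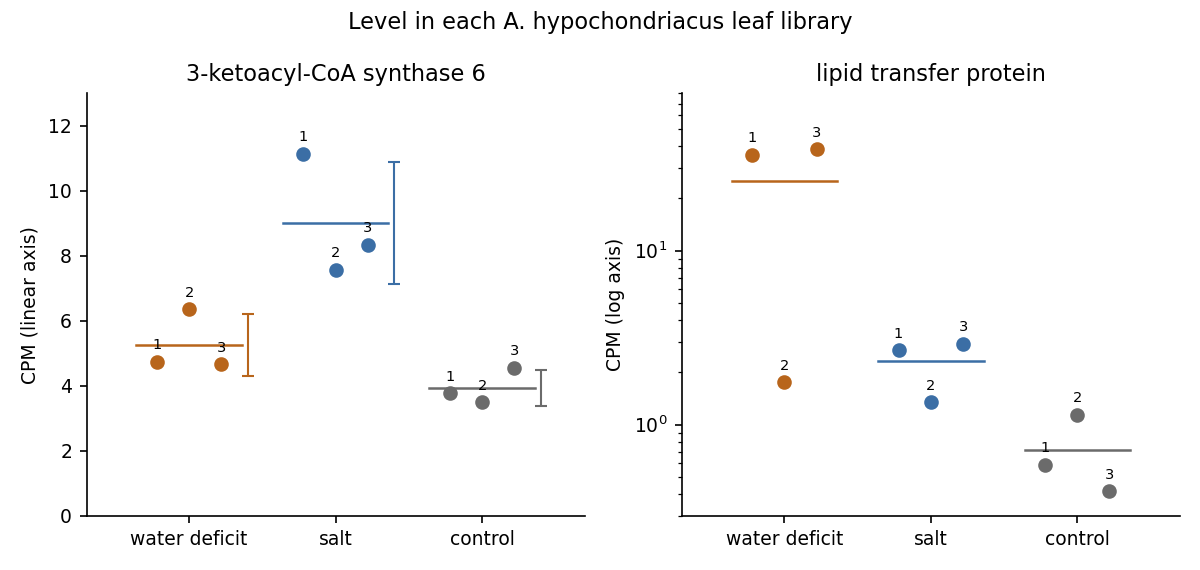
CPM of KCS6 (left, linear axis) and of the LTP (right, log axis) in each library of *A. hypochondriacus*; points are libraries with their replicate number, horizontal lines are group means, and the bars beside the KCS6 points are 1 SD (n = 3). The 3 salt libraries of KCS6 sit at 7.57 to 11.1 CPM, above all others, and the LTP has 35.6 and 38.3 CPM in water-deficit libraries 1 and 3 against 1.76 CPM in library 2.

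KCS6 had 4.74, 6.36 and 4.66 CPM in the water-deficit libraries 1, 2 and 3. In the salt libraries it had 11.1, 7.57 and 8.35 CPM. In the control libraries it had 3.77, 3.49 and 4.55 CPM. Every salt library was above every water-deficit library, and every water-deficit library was above every control library, the last by a narrow margin of 4.66 against 4.55 CPM. These values rest on 47 to 107 counts per library under water deficit, 155 to 281 under salt and 45 to 55 in the control.

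The order of the groups for KCS6 was salt, water deficit, control. The means were 9.02 ± 1.88 CPM under salt, 5.25 ± 0.957 CPM under water deficit and 3.94 ± 0.552 CPM in the control (SD, n = 3 each). Salt over control gave a log2FC of 1.19 (SE 0.20, 95% interval 0.77 to 1.62), a 2.29-fold higher level with an FDR of 0.00037 in the quasi-likelihood test of edgeR, and KCS6 passed. Of all tested transcripts, 3.53% passed as higher under salt, and in 18.4% all salt libraries were above all control libraries. KCS6 was listed by the study from these same libraries, so its salt increase is a description and not an independent result, and 5.04% of tested transcripts had a higher log2FC under salt.

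The neighbours in that order were less clearly apart. Water deficit over control gave a log2FC of 0.39 (SE 0.22, 95% interval -0.07 to 0.84, FDR 0.234 by edgeR). With TMM factors, a doubling of KCS6 in water-deficit leaves lies outside this interval. Scaled by library totals alone, the log2FC was 0.74 (FDR 0.313 by edgeR), and no interval was computed on that scale. In 14.0% of tested transcripts all water-deficit libraries were above all control libraries, as they were for KCS6. Water deficit over salt gave a log2FC of -0.81 (SE 0.20, 95% interval -1.22 to -0.39, FDR 0.0134 by edgeR), short of both limits. A separation of that kind, with all water-deficit libraries below all salt libraries, was found in 15.6% of tested transcripts.

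KCS6 varied less between libraries than the median transcript under water deficit and in the control, and more under salt. Its log2 CPM differed by at most 0.44 among water-deficit libraries, where the median tested transcript had a range of 0.65. Its range was 0.55 among salt libraries, against a median of 0.43 over all tested transcripts, and 0.37 among control libraries, against a median of 0.56. The second water-deficit library, which stood apart over all transcripts, had the highest KCS6 level of its group with TMM factors, but not by library totals alone. KCS6 is the only transcript of its Trinity component, the unit in which the assembler groups related sequences, so no sister sequence in the assembly competes for its reads within the component.

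The LTP had 35.6, 1.76 and 38.3 CPM in the water-deficit libraries 1, 2 and 3. In the salt libraries it had 2.68, 1.35 and 2.91 CPM. In the control libraries it had 0.587, 1.14 and 0.414 CPM. Water-deficit libraries 1 and 3 stood far above the rest, while library 2 lay within the range of the salt libraries and above every control library. The counts behind these values were 451, 13 and 879 under water deficit, 59, 50 and 54 under salt, and 7, 16 and 5 in the control.

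The order of the groups for the LTP by mean was water deficit (25.2 ± 20.4 CPM), salt (2.31 ± 0.844 CPM) and control (0.713 ± 0.379 CPM; SD, n = 3 each). Water deficit over control gave a log2FC of 5.13 (SE 0.76, 95% interval 3.53 to 6.73), a 35.0-fold higher level with an FDR of 0.00011 by edgeR, and the LTP passed. Of all tested transcripts, 2.75% passed as higher under water deficit, 0.0322% had a higher log2FC, and in 14.0% all water-deficit libraries were above all control libraries, as for the LTP. The LTP carries its name in lists of the study made from these same libraries, so this increase is a description and not an independent result. The libraries behind the 35.0-fold increase were not alike. Against the pooled control libraries, the LTP was 48.4-fold higher in water-deficit library 1, 52.1-fold higher in library 3 and 2.39-fold higher in library 2. The last ratio rests on 13 reads against 28 and has an exact 95% binomial interval of 1.14 to 4.77, which covers counting error only. Without the second water-deficit library the log2FC was 5.66, and it passed with each library left out in turn (4.72 to 5.69).

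Water deficit over salt gave a log2FC of 3.52 for the LTP (SE 0.62, 95% interval 2.20 to 4.84, FDR 0.00196 by edgeR), which passed, as did 1.75% of tested transcripts in that direction. Of the salt libraries, 2 of 3 had more LTP than the second water-deficit library. The call was lost when any of 5 libraries was left out, 1 or 3 of water deficit or any of the salt group, with log2FC of 3.11 to 3.69 and FDR of 0.0109 to 0.0202. Without the second water-deficit library the log2FC was 4.04 and the FDR 1.28e-09.

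Under salt, the LTP lay above every control library in all 3 libraries, as 18.4% of tested transcripts did. The log2FC was 1.61 (SE 0.83, 95% interval -0.14 to 3.36, FDR 0.189 by edgeR) and did not pass. In this fit the spread of a transcript is estimated over all 9 libraries, and the water-deficit libraries of the LTP spread widely. When the 6 salt and control libraries were fitted alone, the log2FC was 1.60 and the FDR 0.00439, and without the second water-deficit library the values were 1.61 and 0.00186, so that the transcript passed in both fits. The adjusted p ranged from 0.000104 to 0.399 over 20 alternatives, and the salt increase of the LTP was a call of 4 of them.

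The spread of the LTP between water-deficit libraries was among the widest in the table. Its log2 CPM ranged over 4.36 there, wider than in all but 16 of the 12429 tested transcripts. Among salt libraries the range was 1.05, and 7.10% of tested transcripts had a wider one. Among control libraries it was 1.25, and 10.5% were wider. In 10 tested transcripts the second water-deficit library was below both others of its group by at least 4 log2 units.

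The sister transcript of the LTP followed it. DN4324_c0_g1_i1 belongs to the same Trinity component and is also named lipid transfer protein. It had 27.8, 2.16 and 27.9 CPM in the water-deficit libraries, 2.50, 1.16 and 2.48 CPM in the salt libraries, and 0.252, 1.14 and 0.662 CPM in the control libraries. Water-deficit library 2 was again low, and libraries 1 and 3 were high. Its log2FC was 4.80 for water deficit over control (FDR 8.91e-05 by edgeR), 3.32 for water deficit over salt (FDR 0.00162) and 1.48 for salt over control (FDR 0.200). Counts of the sister transcript were 72.8 to 123% of those of the LTP in water-deficit libraries, 85.2 to 93.2% in salt libraries and 42.9 to 160% in control libraries, the last on 16 counts or fewer. Only reads with a unique place were counted, so reads that fit both sequences were lost, and the share of each transcript is uncertain. The counts of both added together gave a log2FC of 4.98 for water deficit over control, 3.39 for water deficit over salt and 1.59 for salt over control, with the same calls as the LTP alone.

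The third lipid transfer transcript, DN4351_c0_g2_i1, had another pattern. It had 0.474, 2.03 and 1.44 CPM in the water-deficit libraries, 2.23, 2.32 and 2.59 CPM in the salt libraries, and 0.922, 0.996 and 0.828 CPM in the control libraries. The salt libraries were above all others, with 18.4% of tested transcripts separated upwards from the control and 15.6% from water deficit in this way. With TMM factors the second water-deficit library was the highest of its group. It rose under salt, with a log2FC of 1.36 (FDR 0.00545 by edgeR), and gave 0.45 for water deficit over control (FDR 0.459) and -0.91 for water deficit over salt (FDR 0.0535).

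**Figure D2:**
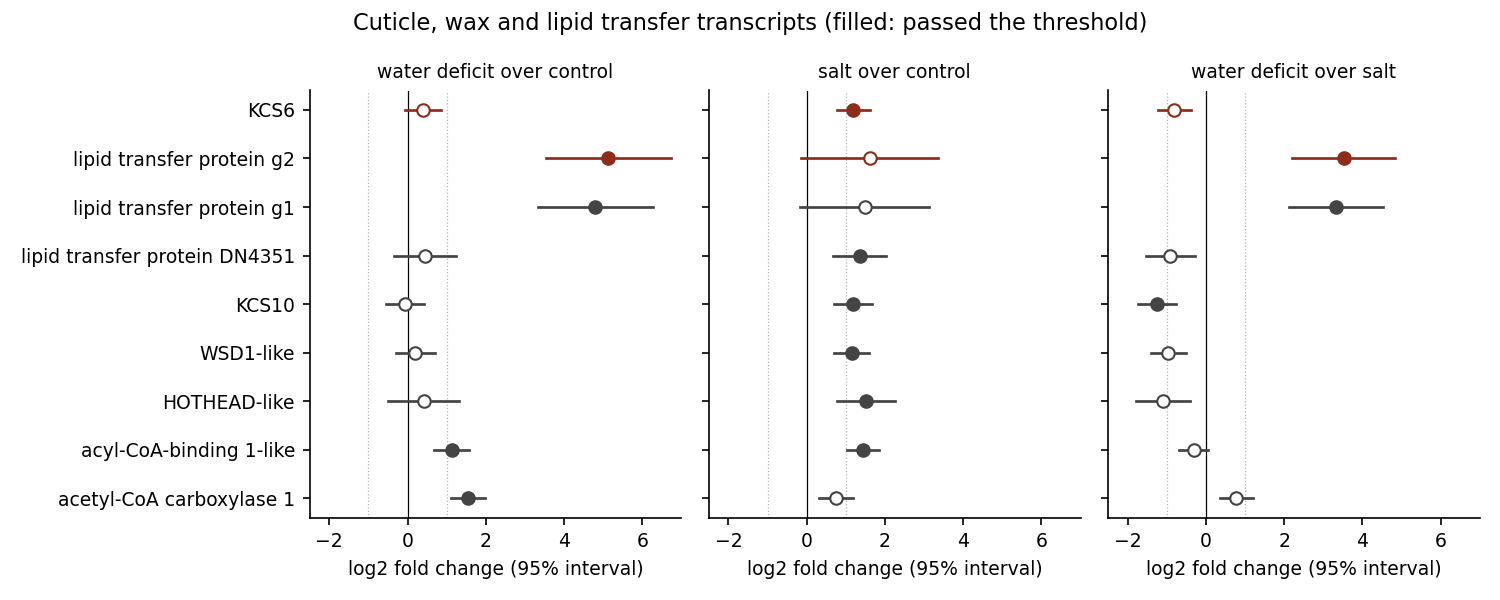
Log2 fold changes with 95% intervals of KCS6 and the LTP (red) and of other transcripts (grey) in *A. hypochondriacus*, for water deficit over control, salt over control and water deficit over salt. The grey points are other wax, cuticle and lipid transfer transcripts and acetyl-CoA carboxylase 1, a fatty acid synthesis transcript. Filled points passed the FDR and log2FC limits and dotted lines mark a log2FC of -1 and 1. The LTP and its sister stand apart under water deficit at 5.13 and 4.80, while KCS6 and the wax transcripts lie between 1.15 and 1.51 under salt.

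Other transcripts of cuticle and wax formation were taken from the annotated lists of the study, which were selected on these libraries, so their counts are not independent evidence of direction. All 4 rose under salt, with a median log2FC of 1.32, against -0.00 over all tested transcripts, of which 3.53% rose. Under water deficit 1 of 4 rose, where 2.75% of all tested transcripts did, with a median of 0.31 against 0.01. Relative to salt, 1 of 4 fell under water deficit, where 2.36% of all tested transcripts did, with a median of -1.03 against 0.02. Without the second water-deficit library 2 of 4 fell, in a fit where 981 of 14188 tested transcripts passed, 55.1% of them lower.

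The transcript nearest in function to KCS6 is KCS10 (DN1303_c0_g1_i1), a condensing enzyme known in *A. thaliana* as FIDDLEHEAD, which keeps epidermal surfaces from fusing. KCS10 had 14.5, 29.6 and 18.7 CPM in the water-deficit libraries, 50.4, 46.3 and 52.4 CPM in the salt libraries, and 21.1, 21.6 and 22.8 CPM in the control libraries. The salt libraries were above all others (18.4% of tested transcripts against the control, 15.6% against water deficit), and the water-deficit libraries straddled the control. Its log2FC was 1.19 for salt over control (SE 0.23, FDR 0.00125 by edgeR) and -0.07 for water deficit over control (FDR 0.871). Water deficit over salt was -1.26 (FDR 0.00249), which passed for KCS10 and, at -0.81, did not for KCS6.

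The WSD1-like O-acyltransferase (DN5819_c0_g1_i1) resembles the wax ester synthase of *A. thaliana* stems. It averaged 3.58 ± 1.13 CPM under water deficit, 6.66 ± 0.221 CPM under salt and 2.99 ± 0.742 CPM in the control (SD, n = 3 each). It rose under salt, with a log2FC of 1.15 (FDR 0.000764 by edgeR), and gave 0.19 for water deficit over control. HOTHEAD-like (DN10928_c0_g1_i1), related to an oxidoreductase of cutin monomer synthesis in *A. thaliana*, rose under salt by a log2FC of 1.51 (FDR 0.00476) on 22 to 46 counts in salt libraries and 3 to 8 in control libraries. Its value for water deficit over control was 0.42 (FDR 0.586).

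The acyl-CoA-binding domain-containing protein 1-like (DN7687_c0_g2_i1), of a family that carries acyl-CoA esters in the cell, was the transcript of this list that rose under both stresses. It had 3.48, 3.52 and 3.27 CPM in the water-deficit libraries, 4.78, 3.74 and 4.26 CPM in the salt libraries, and 1.34, 1.71 and 1.57 CPM in the control libraries. Both stress groups were above the control without overlap, a separation found in 14.0% of tested transcripts for water deficit and 18.4% for salt. The log2FC was 1.13 for water deficit over control (FDR 0.000923 by edgeR) and 1.45 for salt over control (FDR 3.95e-05).

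Fatty acid synthesis was represented by 5 transcripts of the same lists, which were selected on these libraries. Under water deficit 1 rose, with a median log2FC of 0.58 against 0.01 over all tested transcripts, of which 2.75% rose. Under salt 3 rose and 1 fell, with a median of 1.02 against -0.00 over all tested transcripts, of which 3.53% rose and 6.61% fell. The transcript that rose under water deficit was acetyl-CoA carboxylase 1 (DN7574_c0_g1_i1), the cytosolic enzyme that makes the malonyl-CoA used by KCS6 and other elongases. It had 58.6, 41.8 and 52.8 CPM in the water-deficit libraries, 34.1, 26.4 and 28.9 CPM in the salt libraries, and 20.1, 15.2 and 17.5 CPM in the control libraries. The 3 groups did not overlap, and the order was water deficit, salt, control. Among all tested transcripts, 14.0% had all water-deficit libraries above all control libraries, 18.4% all salt libraries above all control libraries and 12.8% all water-deficit libraries above all salt libraries. The log2FC was 1.54 for water deficit over control (FDR 4.6e-05 by edgeR), and for salt over control it was 0.76 (FDR 0.0137), which did not pass. Of the plastid enzyme that feeds the first steps of synthesis, the biotin carboxylase subunit (DN6739_c0_g3_i1) rose under salt by a log2FC of 1.02, whereas the carboxyltransferase beta subunit (DN8422_c0_g3_i1) fell by 1.31 under salt. The other transcripts that rose under salt had few reads. A mitochondrial-like acyl carrier protein (DN7878_c1_g1_i1, log2FC 2.14) had 0 to 10 counts in control libraries. DN3679_c0_g2_i1 (log2FC 1.66) had 3 to 8, and its name is cut short after 3-oxoacyl, so its function is uncertain.

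The fatty acid desaturases, which put double bonds into membrane and storage lipids, did not follow KCS6. The desaturases, GDSL esterase/lipases and leaf markers also come from the annotated lists of the study, selected on these libraries. Many calls among them were thus to be foreseen, and their counts are not independent evidence of direction. All 6 desaturases fell under salt, with a median log2FC of -2.08, and 5 of 6 fell under water deficit, with a median of -2.04. Of all tested transcripts 6.61% fell under salt and 6.96% under water deficit. For 1 omega-6 desaturase of the endoplasmic reticulum (DN10484_c0_g1_i1) the levels were 0.790, 0.406 and 1.13 CPM under water deficit, 0.455, 0.512 and 0.377 CPM under salt, and 4.11, 3.27 and 3.56 CPM in the control, with no overlap between either stress and the control. Such a separation downwards was found in 20.6% of tested transcripts for salt and 18.2% for water deficit. The 4 GDSL esterase/lipases, a family that includes the cutin synthase of tomato, were split, with 2 lower under water deficit (median log2FC -0.60) and 2 higher and 2 lower under salt (median -0.09), where 3.53% of all tested transcripts were higher. In water deficit over salt, 1 GDSL member was lower, 1 desaturase was higher and none of the fatty acid synthesis transcripts passed. Of all tested transcripts 2.36% were lower and 1.75% higher in that comparison. Without the second water-deficit library 2 GDSL members were lower, in a fit where 981 of 14188 tested transcripts passed, 55.1% of them lower. All 5 leaf markers fell under both stresses as well, with a median log2FC of -3.24 under water deficit and -2.02 under salt, and their part in the results for KCS6 and the LTP was not tested. Scaling by library totals alone moved the median log2FC of all tested transcripts to 0.77 for salt over control and 0.38 for water deficit over control. The share of passing transcripts that were lower then became 16.0% under salt, against 65.2% with TMM factors, and 48.5% under water deficit, against 71.7%. Of the 12429 tested transcripts 1285 then passed under salt, 1080 of them higher, and 651 passed under water deficit, 335 of them higher. On that scale the desaturases that passed as lower under salt were 2 of 6 and those under water deficit 3 of 6, no GDSL member passed as lower, 4 of 5 fatty acid synthesis transcripts rose and none fell under salt, the leaf markers that fell were 5 of 5 under water deficit and 2 of 5 under salt, and all 4 cuticle transcripts rose under salt and none of the 4 under water deficit.

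With TMM factors, the water-deficit library in which the LTP was low was not low for the wax transcripts. On that scale water deficit 2 was the highest of its group for KCS6 and for all 4 other cuticle and wax transcripts. For the acyl-CoA-binding transcript the margin was only 3.52 against 3.48 CPM. Every listed GDSL esterase/lipase and most listed desaturases were also highest in water deficit 2, so this was not particular to the wax transcripts. The share over all tested transcripts was not counted. These orders depend on the scaling, as the TMM factor was 0.677 in water deficit 2, against 0.929 and 1.44 in water deficit 1 and 3. KCS6 had 60, 47 and 107 counts in libraries 1, 2 and 3, of 13.6, 10.9 and 15.9 M in all. By library totals alone KCS6 was therefore not highest in water deficit 2. The LTP, with 451, 13 and 879 counts, was lowest there on either scale. For KCS10 the level in water deficit 2 was 1.79 times the mean of the other water-deficit libraries. For the LTP that ratio was 0.0476 and for the sister transcript 0.0777. For acetyl-CoA carboxylase 1 it was 0.750, and the level stayed above every salt and control library.

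The transcripts with the profile nearest to each member over the 9 libraries were sought among the other 12428 tested, by the root mean square difference of log2 CPM after subtracting the mean of each transcript. For KCS6 the 10 nearest were at 0.14 to 0.21, and 7 of them carry a description. The nearest described were a lin-12-like protein (DN17181_c0_g1_i1, 0.14), an aspartic protease in guard cell 1-like (DN5769_c0_g2_i1, 0.15), named after a protease of *A. thaliana* guard cells, and a DEAD-box RNA helicase 47A (DN8424_c0_g1_i1, 0.18). The guard cell protease homologue averaged 8.80 ± 2.78 CPM under water deficit, 13.4 ± 1.53 CPM under salt and 6.06 ± 0.977 CPM in the control (SD, n = 3 each). The order of these means is that of KCS6, which the choice by profile brings with it. Its water-deficit and control libraries overlapped, with 6.56 CPM in water deficit 1 and 7.12 CPM in control 3.

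For the LTP the 10 nearest were at 0.41 to 0.93, farther than for KCS6, and 4 carry a description. The sister transcript came nearest, at 0.41. Next among the described was a lysine-ketoglutarate reductase/saccharopine dehydrogenase (DN19721_c0_g1_i1, 0.60), the enzyme that starts lysine breakdown. It had 15.9, 0.947 and 9.19 CPM in the water-deficit libraries, 0.910, 1.48 and 1.35 CPM in the salt libraries, and 0.252, 0.427 and 0.331 CPM in the control libraries. The second water-deficit library lay within the salt range, a likeness to the LTP that the choice by profile brings with it. A probable nucleoredoxin 2 (DN4536_c0_g1_i1, 0.86) had 12.3, 3.92 and 13.0 CPM under water deficit, 2.27, 2.29 and 1.89 CPM under salt and 0.419, 0.569 and 0.166 CPM in the control, and there the second water-deficit library was above every salt library. The distance between KCS6 and the LTP was 2.16. This distance grows with the size of a transcript's own changes, which were large for the LTP, so it cannot show a difference in shape. The same limit holds for the farther neighbours of the LTP. The group means did differ in order, with salt highest for KCS6 and water deficit highest for the LTP. Descriptions exist for 1242 transcripts only, those in the lists of the study, and the nearest neighbours without one cannot be named.

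In *A. hybridus*, assembled and counted on its own, the transcripts named lipid transfer protein were compared with no claim that any is the counterpart of the LTP. DN9330_c0_g3_i1 had 34, 39.4 and 0.667 CPM in the water-deficit libraries, 1.79, 7.70 and 4.24 CPM in the salt libraries, and 1.59, 0.619 and 4.84 CPM in the control libraries. DN9330_c0_g4_i1 had 44.7, 31.8 and 1.56 CPM in the water-deficit libraries, 7.66, 8.51 and 9.35 CPM in the salt libraries, and 3.09, 3.35 and 11.9 CPM in the control libraries. For both, water-deficit libraries 1 and 2 were above all other libraries, and water-deficit library 3 was below every salt library.

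Neither passed in *A. hybridus*, where 0.960% of 9686 tested transcripts passed as higher under water deficit. The log2FC for water deficit over control was 3.30 for DN9330_c0_g3_i1 (FDR 0.0564 by edgeR) and 2.06 for DN9330_c0_g4_i1 (FDR 0.128). Without water-deficit library 3 these were 3.85 (FDR 0.000715) and 2.60 (FDR 0.00148), and both passed. Over 11 alternatives the FDR ranged from 0.000715 to 0.507 for DN9330_c0_g3_i1 and from 0.00148 to 0.887 for DN9330_c0_g4_i1. Control library 3 of *A. hybridus*, where both were highest among controls, held 2.55 M counts outside the 20 most abundant transcripts, against 0.339 to 0.804 M in the others. The remaining lipid transfer transcripts, DN4609_c0_g1_i1 and DN22595_c0_g1_i1, did not pass under water deficit and had at most 58 counts in a library.

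**Figure D3:**
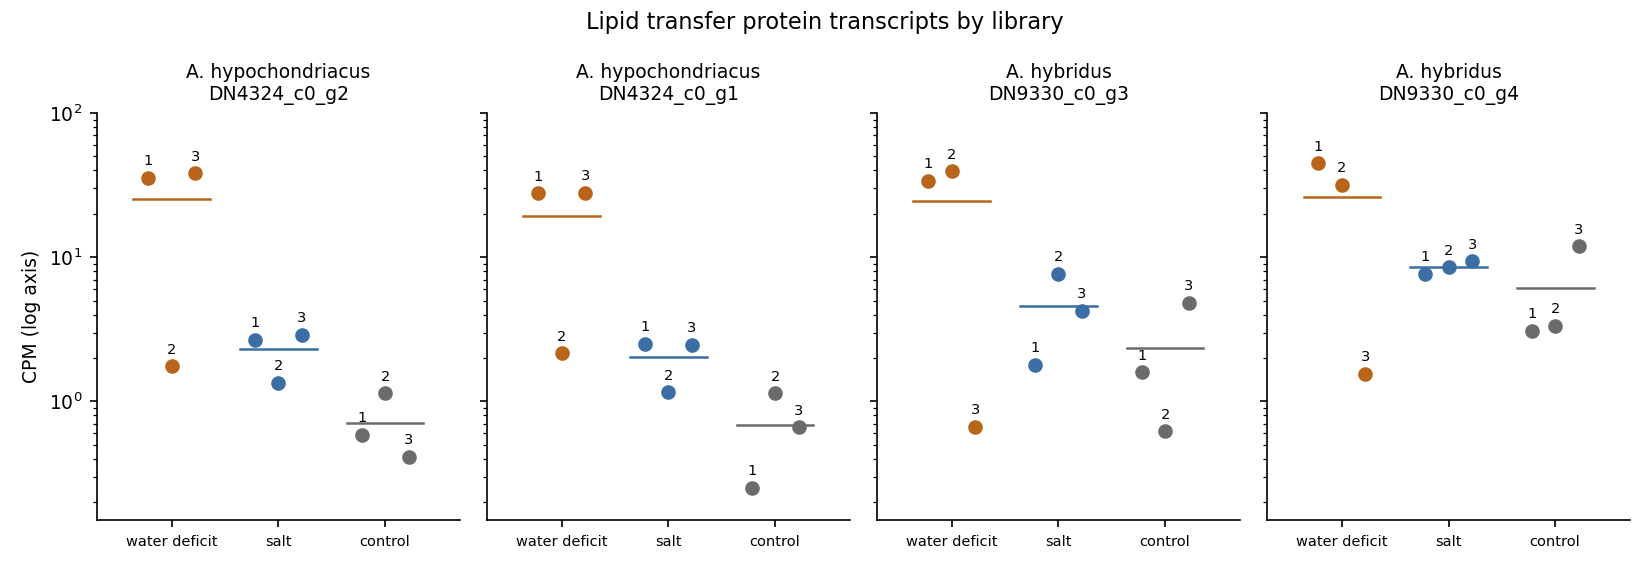
CPM on a log axis in each library for the LTP and its sister in *A. hypochondriacus* and for DN9330_c0_g3 and DN9330_c0_g4 in *A. hybridus*, with group means as horizontal lines and replicate numbers beside the points. In each panel 2 water-deficit libraries lie above all other libraries (27.8 CPM or more), and 1 lies within or below the salt range, at 0.667 to 2.16 CPM.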

How the data were processed

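Leaf RNA of both species was sequenced with single-end reads of 75 bases. Each species has its own Trinity assembly, in which the authors merged sequences above 90% identity with CD-HIT. Reads cleaned with Trimmomatic were aligned to it with Bowtie2 2.3.0, and the deposited values are raw counts per transcript of reads with a single place, without normalization. Reads shared by near-identical transcripts are therefore missing. Every per-sample column was used.

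Counts of the 9 libraries of a species were fitted in R 4.3.3 with edgeR 4.0.16 (glmQLFit and glmQLFTest, TMM, filterByExpr, Benjamini-Hochberg FDR). SE is the absolute log2FC over the square root of F. DESeq2 1.42.0 served as an alternative. Profile distances used log2 CPM with a prior count of 2. Total counts of 10.9 to 20.5 M per library, 0.320 to 1.50 M outside the 20 most abundant transcripts, set the precision. On counts simulated for salt over control with 11045 transcripts tested, 95 of 100 changes of an absolute log2FC of 2 and 97 of 100 of 3 were recovered, with 3 false calls. Transcripts with the lowest mean CPM were not among those changed. No smaller change, like that of KCS6 under salt, was simulated, and no library was set apart from its group, as for the LTP. The rates do not cover these cases. The members and lists were chosen with earlier results of these data known. Named transcripts are the members, the lists, transcripts of a member's component and up to 3 described among the 10 nearest profiles. The exact test, the 6 libraries of a comparison, other scalings, filters and thresholds, a replicate block, component sums and each library left out were tried. List counts without the second water-deficit library or with library totals, and the alternatives for *A. hybridus*, were chosen after seeing the data. Figures were drawn with matplotlib 3.10.9.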

Additional observations from a re-analysis of the deposited data

How the results depend on the processing

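For the LTP, salt over control passed at a log2FC of 1.64 with the exact test of edgeR on 6 libraries (FDR 0.000104), 1.60 with the quasi-likelihood test on those libraries (FDR 0.00439) and 2.28 with library totals (FDR 0.000186). Leaving out 1 library at a time gave 1.36 to 2.19, and it passed in 1 of 9 such fits, without the second water-deficit library (FDR 0.00186). The DESeq2 FDR was 0.292. Water deficit over salt for the LTP ranged from 3.11 to 4.04 with 1 library left out and was lost in 5 of 9 fits. Its water deficit over control passed under all 20 alternatives. For KCS6, salt over control passed in 18 of 19 alternatives and, at its 1.19, missed only an absolute log2FC limit of 2. Leaving out 1 library gave 1.01 to 1.32, and library totals 1.94, on a scale where the median of all tested transcripts was 0.77. Its other comparisons passed in none of 19, with FDR of 0.139 to 0.457 for water deficit over control and 0.0027 to 0.109 for water deficit over salt.

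Transcripts passing numbered 1261 for salt over control, 1207 for water deficit over control and 510 for water deficit over salt. An absolute log2FC limit of 2 left 438, 453 and 128. Library totals gave 651 for water deficit over control and 330 for water deficit over salt, with 80.3% lower against 57.5%, and an FDR limit of 0.05 gave 895 for the last. With 1 library left out the numbers were 920 to 1490, 788 to 1579 and 105 to 981. For water deficit over salt they were 159, 981 and 105 without water deficit 1, 2 and 3, and 263, 210 and 283 without salt 1, 2 and 3. For water deficit over control the number was 788 without water deficit 3. The cause was not tested.

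The replicate numbers were not treated as pairs. The paper reports a randomized complete block design, and the labels used here name no block. Same-numbered libraries of different groups had deviations with correlations of -0.09 to 0.06 in *A. hypochondriacus* and of -0.16 to 0.25 in *A. hybridus*. With the number as a replicate block, the LTP gave 4.70, 1.57 and 3.12 and KCS6 0.39, 1.18 and -0.80 for water deficit over control, salt over control and water deficit over salt. Calls numbered 1114, 1173 and 415 in that order, and no member changed its call. Low counts limit the LTP in the control (5 to 16 reads) and in the second water-deficit library (13 reads).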
